A study of Rattus norvegicus with 3 samples.

Results

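The cells described here are Crym and Isyna1 mesenchyme-like cells of the rat cochlea, 743 of 12779 kept cells at postnatal day 1 (P1) and 293 of 12581 at day 7 (P7), 1036 of 25360 in both libraries and out of 30641 kept cells in the whole series. They were chosen by measured values in single cells. A member held Crym at 40 or more UMIs (unique molecules counted) per 10000 UMIs of the cell, at least 2 UMIs of Isyna1, Cnmd under 10 per 10000, at most 1 UMI of Tac1 and none of Aldh1a2. Because these values chose the cells, the levels of the 5 genes and the contrasts with other cells are descriptions without a test.

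The libraries came from cochlear duct tissue of untreated Sprague-Dawley rats, dissociated with collagenase and papain, with animals pooled and 1 library per stage. The labels call the material greater epithelial ridge cells, the columnar epithelium beside the inner hair cells, but the whole dissociated tissue was captured. A stage therefore cannot be told apart from its library, and fewer cells of a kind cannot be told apart from a different yield in dissociation. The library from day 14 held no member among 5281 kept cells, which allows a share of up to 0.0568%, at a median of only 1614 UMIs per cell. Of these cells 3 reached the Crym level, and 238 held 2 or more Isyna1 UMIs.

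Crym encodes mu-crystallin, a cytosolic protein that binds thyroid hormone, and variants of it are known in inherited human deafness. Isyna1 encodes the enzyme that makes inositol phosphate from glucose phosphate, the first step of inositol synthesis. Otor (otoraplin) and Coch (cochlin) are secreted proteins of the cochlear mesenchyme, which develops under the transcription factors Pou3f4 and Tbx18 into the fibrocytes of the spiral ligament and limbus. Fibrocytes carry a matrix rich in cartilage-type collagens and recycle potassium. Thyroid hormone and Wnt signals both act on this tissue during the postnatal period before hearing begins.

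Members made up 5.81% of kept cells at P1 (exact binomial 95% interval 5.41 to 6.23%) and 2.33% at P7 (2.07 to 2.61%). All intervals in the text are 95% intervals and cover counting error only. The median member held 7402 UMIs at P1 and 8452 at P7, and the summed counts came to 6316943 and 2743790 UMIs. The median share of mitochondrial UMIs was 6.65% and 7.38%. Of the kept cells of the 2 libraries, 53 shared a barcode, among them 6 members of P1 and 1 of P7, and no barcode was a member in both.

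The Isyna1 criterion removed most Crym-rich cells. At P1, 3532 cells passed the Crym level, 918 of them also had 2 Isyna1 UMIs, and the limits on Cnmd, Tac1 and Aldh1a2 left 872, 839 and 743. At P7 the same steps left 2530, 429, 353, 328 and 293 cells. Many members lay at the edge of the rule, 246 of 743 at P1 and 153 of 293 at P7 having exactly 2 Isyna1 UMIs, while 610 and 384 cells met every other criterion with exactly 1. On the Crym side, 51 members at P1 and 17 at P7 lay between 40 and 45 per 10000, and 55 and 26 cells just outside lay between 35 and 40.

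Crym was alike in both libraries and Isyna1 was not. The lowest, median and highest Crym values of members were 40.4, 77.7 and 270.1 UMIs per 10000 at P1 and 40.03, 79.5 and 222.2 at P7. Isyna1 ran from 0.751 through a median of 5.58 to 134.5 per 10000 at P1 and from 0.919 through 3.09 to 28.7 at P7. The upper part of the P1 distribution, 267 members or 35.9% (32.5 to 39.5%) at 10 per 10000 or more, had 18 members or 6.14% (3.68 to 9.54%) as its counterpart at P7. Otor was found in 742 of 743 and 292 of 293 members, and Col9a3, which encodes a chain of type IX collagen, in 85.1% and 81.6% of them.

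**Figure D1:**
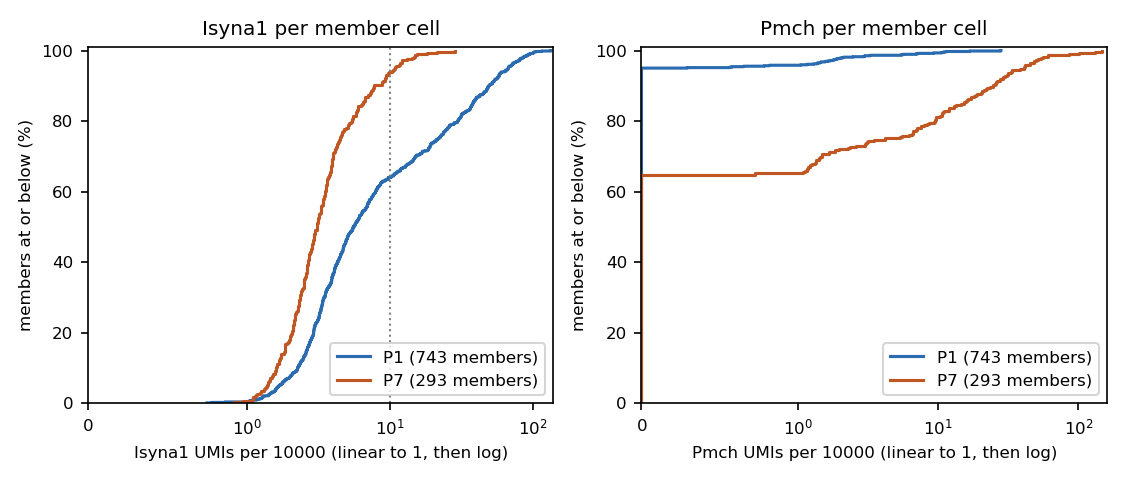
Cumulative share of member cells (y axis, percent) at or below a level of Isyna1 (left) or Pmch (right) in UMIs per 10000 (x axis, linear to 1 and logarithmic above), for 743 members at P1 and 293 at P7. The dotted line marks 10 per 10000, reached by 35.9% of members at P1 and 6.14% at P7; Pmch had no UMI in most members of either stage.

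The label mesenchyme-like was checked against marker genes. Summed over all members and given as CPM (UMIs per 1000000 UMIs), Pou3f4 reached 508 at P1 and 467 at P7, Tbx18 406 and 394, and Twist1 179 and 194. The list of otic mesenchyme transcription factors, which holds these genes, summed to 2098 and 2228 CPM in members. In all other kept cells it summed to 2077 and 1912 CPM, so it did not set members apart. Otor, one of the markers by which the cells were named, reached 16218 and 20187. Epithelial genes were low, with 22 and 19 UMIs of Epcam (3.48 and 6.92 CPM) and 2 and 1 UMIs of Krt18. The list of 14 epithelial genes summed to 50.2 and 204 CPM in members against 6529 and 8582 CPM in cells with 3 or more Epcam UMIs. The largest difference between stages in that list was that of Fbxo2, at 25.3 and 129 CPM. Of 11 hair cell genes measured, 7 were at 0 at P1 and 10 at P7. By these markers members held otic mesenchyme genes and were low in epithelial genes. The sample label names the greater epithelial ridge, and where the members lay in the tissue was not tested.

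The fibroblast list of 8 genes, which the cochlear mesenchyme also expresses in part, reached 5 or more UMIs in 285 members at P1 and 116 at P7 and summed to 664 and 660 CPM, against 2062 and 3957 CPM in all other kept cells. The cartilage list reached 5 UMIs in 80 and 63 members. At least 5 UMIs of any of 10 lists of cell types other than these and dividing cells were found in 94 members at P1 and 141 at P7, of which the endothelial list gave 36 and 84 and the epithelial list 4 and 42. The glial list summed to 76.6 and 539 CPM against 663 and 3824 CPM in all other kept cells. The neuronal list summed to 97.2 and 36.1 CPM, and the T and NK cell list to 0 in both libraries.

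Members were first compared with cells holding 2 or more UMIs of Aldh1a2, which encodes a retinoic acid synthesizing enzyme. There were 1590 such cells at P1 and 728 at P7, all with Crym under 40 per 10000. The Tac1 and Cnmd cells compared below had no limit on Crym, so numbers of genes called are not ranked between groups. A gene was called where the log2 ratio of CPM, with 10 CPM added to both, was at least 1 in size in the same direction in both libraries, among genes of at least 20 CPM in either group. Of 5013 genes, 105 (2.09%) were higher and 138 (2.75%) were lower in members.

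All 6 cartilage-type collagens tested were higher in members than in Aldh1a2 cells, with a median log2 ratio of 3.37 at P1 and 3.12 at P7 against -0.02 in both libraries over all genes tested. Col9a1, the most abundant of them, stood at 2835 against 245 CPM at P1 and 4410 against 586 at P7. Col2a1, which encodes the main fibril of cartilage, was at 767 and 947 CPM in members and at 73.9 and 103 in Aldh1a2 cells. Matn4 (matrilin 4, a filament protein of matrix) reached 1143 and 858 CPM against 47.1 and 68.2, and Coch 449 and 169.1 CPM against 8.94 and 6.45. In the same direction were Col9a2, Col9a3, Col11a2 and the Wnt inhibitor Wif1, with log2 ratios between 2.69 and 3.66.

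The 8 genes lowest in members against Aldh1a2 cells were Cavin2, Tnfaip6, Itga8, Kcnk2, Calb2, Osr2, Cldn11 and Clu, with log2 ratios from -2.83 to -4.51. Calb2, encoding the calcium buffer calretinin, was at 4.75 and 3.28 CPM in members and 114 and 293 CPM in the other cells. Cldn11, a tight junction claudin of strial basal cells, was at 18.5 and 11.7 CPM against 207 and 477. Among retinoic acid genes, Crabp2 and Rarb were lower in members, at 32.1 and 69.2 CPM against 130 and 328 and at 31.2 and 45.2 CPM against 84.96 and 104, and none of those tested was higher.

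Cells with 2 or more UMIs of Tac1 and no Aldh1a2 (1093 and 1064 cells), a neuropeptide precursor gene, were compared next. Of 4978 genes, 37 (0.743%) were higher and 115 (2.31%) lower in members in both libraries. Among the lower genes were several of fibrillar matrix. Dcn (decorin) was at 92.8 and 135 CPM in members against 1212 and 2942, Lum (lumican) at 7.92 and 9.84 against 167 and 244, and Col1a1 at 34.8 and 13.1 against 226 and 190. Of 14 interstitial collagens tested, 6 were lower and none higher, and of 6 small leucine-rich proteoglycans 4 were lower and none higher. Of 11 genes of the insulin-like growth factor axis, 5 were lower (Igf2, Igfbp3, Igfbp5, Igfbp6 and Igfbp7).

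The genes highest against Tac1 cells were led by Cpe, Bcas1, Ccn3, Notum, Apcdd1, Rerg, Nkd1 and Col11a2. Cpe, which encodes carboxypeptidase E, a processing enzyme for peptide hormones, was at 1213 and 876 CPM against 151 and 133. Ccn3, a secreted matricellular protein, was at 2258 and 4760 CPM against 478 and 653. Of the 6 cartilage-type collagens tested only Col11a2 was called, at 224 and 894 CPM against 42.9 and 214, and the median log2 ratio of the 6 was 1.18 at P1 and 0.10 at P7.

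Cells with Cnmd, encoding chondromodulin, at 10 or more per 10000 (513 and 870 cells) were compared in the same way. Of 6 cartilage-type collagens none was called, with a median log2 ratio of -0.61 at P1 and -0.20 at P7. Over 4974 genes, 55 (1.11%) were higher and 100 (2.01%) lower in members. The lower genes included epithelial ones, since Oc90 stood at 3620 and 3932 CPM and Epcam at 346 and 236 CPM in the Cnmd cells. Without Cnmd cells that held Epcam or Oc90 (an alternative chosen after seeing the data, 409 and 751 cells), 48 genes were higher and 52 lower.

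Against the reduced group the genes with the largest ratios included Rerg, Maob and Fn1. Rerg, a Ras-like growth inhibitor, was at 91.0 and 172 CPM in members and at 10.7 and 10.7 CPM in the reduced Cnmd group. Maob (monoamine oxidase B) was at 101.3 and 204 CPM against 22.7 and 19.02, and Fn1 (fibronectin) at 176 and 319 against 41.6 and 62.1. Lower in members were Otos (otospiralin, a fibrocyte protein), at 35.9 and 68.5 CPM against 721 and 2873, and Cytl1, a cartilage cytokine, at 80.3 and 179 against 406 and 815.

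**Figure D2:**
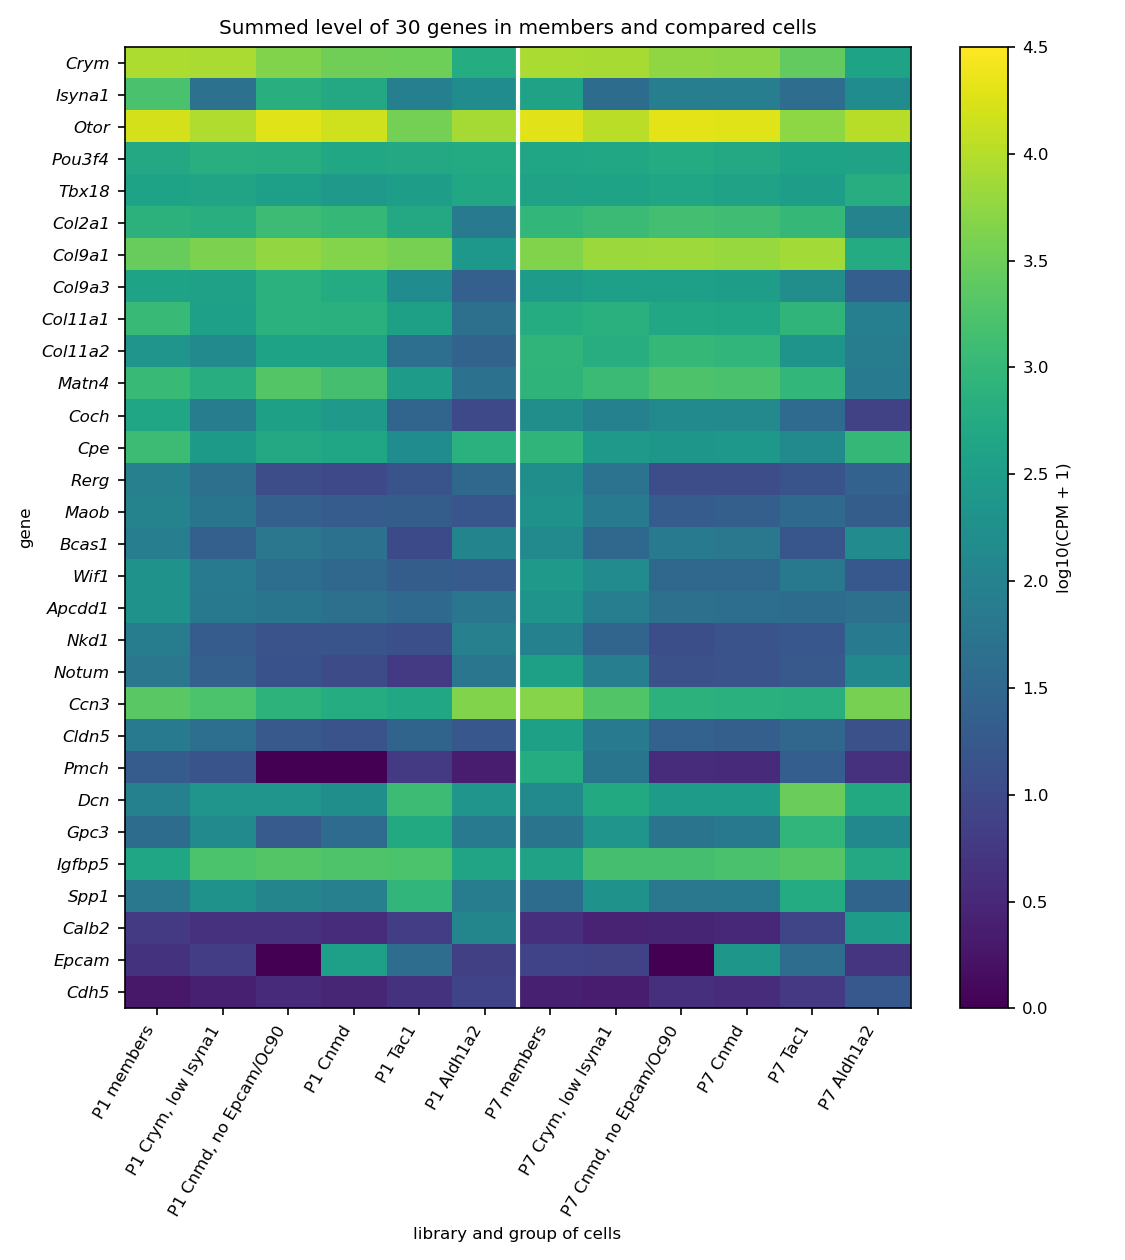
Summed level of 30 genes (rows) as log10(CPM + 1) in members and 5 groups of compared cells (columns), P1 left and P7 right of the white line. Cartilage-type collagens are darker in Aldh1a2 cells than in members (Col9a1 245 against 2835 CPM at P1), while Nkd1 is at 81.2 and 95.5 CPM in members against 13.5 and 13.1 CPM in Cnmd cells.

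The nearest cells were those that met every criterion but Isyna1, with 0 or 1 UMI of it (2003 at P1 and 1395 at P7, with median UMIs of 5876 and 6990 per cell). Crym was as high in them, at 8546 and 8009 CPM against 8665 and 8424 in members. Of 4875 genes, 9 (0.185%) were higher and 33 (0.677%) lower in members in both libraries. The 9 higher genes were led by Cpe, Bcas1, Nkd1, Apcdd1, Cdkn1a, Cav1, Notum and Scg3. Scg3 (secretogranin 3) belongs like Cpe to the regulated secretory pathway, and stood at 52.1 and 54.7 CPM against 19.5 and 21.1. Cdkn1a, which encodes the cell cycle inhibitor p21, stood at 59.7 and 97.3 CPM against 17.0 and 36.9.

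The 33 lower genes were led by Igfbp5, Aspnl1, Gpc3, Spp1, Foxd1, Mgp, Igf2 and Ogn. Igfbp5, a binding protein of insulin-like growth factors, was at 433 and 397 CPM in members against 1692 and 1490 CPM. Mgp (matrix Gla protein, an inhibitor of calcification) was at 389 and 184 CPM against 1288 and 534. Otor, at 16218 and 20187 CPM in members against 9228 and 10950.4, did not pass a log2 ratio of 1 in either library.

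Genes of the thyroid hormone path were measured in members because Crym binds the hormone. Of 19 such genes measured 9 were tested between stages, 2 were higher at P7 and none lower (over all genes 4.55% were higher and 2.12% lower), and none of 8 differed from the Crym cells low in Isyna1 in both libraries. Slco1c1, a thyroid hormone transporter, stood at 16.9 CPM at P1 (13.9 to 20.5) and 212 CPM at P7 (196 to 230). The receptor Thrb was at 20.4 CPM (17.0 to 24.3) and 90.8 CPM (79.8 to 103), and the receptor Thra at 265 and 182 CPM. The amino acid and thyroid hormone carrier Slc7a8 was at 295 and 277 CPM in members against 43.8 and 36.1 in Aldh1a2 cells. Slco1c1 was also higher at P7 in the Crym cells low in Isyna1 (20.2 and 150 CPM) and in Aldh1a2 cells (87.1 and 289 CPM).

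Beside Isyna1, the inositol list showed little. Of 21 genes measured 8 were tested between stages and 1, the taurine transporter Slc6a6, was higher at P7, at 11.7 and 33.5 CPM. Impa1, which frees inositol from the phosphate that Isyna1 makes, stood at 19.5 and 39.0 CPM. None of 7 tested inositol genes was called against any of the 4 compared groups.

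Wnt antagonists and targets were called higher in members in more than 1 contrast. Wnt ligands stabilize beta-catenin, which acts with TCF and LEF factors on target genes, several of which in turn inhibit the pathway. Of 32 genes of the Wnt list, 7 of 15 tested genes were higher in members than in Tac1 cells and 1 lower, 7 of 15 higher than in Cnmd cells and 1 lower, and 3 of 16 higher than in Crym cells low in Isyna1 and 1 lower. The share of all genes called higher in these contrasts was 0.743%, 1.11% and 0.185%. Against Aldh1a2 cells 4 of 16 were higher and 3 lower. The lower genes were Wnt5b against Tac1 cells and the secreted antagonists Sfrp1 against Cnmd cells and Sfrp4 against Crym cells low in Isyna1. Against Aldh1a2 cells they were Wnt6, Sp5 and Nkd2.

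Several of these genes inhibit the pathway. Notum, an enzyme that inactivates Wnt ligands, stood at 59.0 and 356 CPM in members, 4.90 and 17.0 in Tac1 cells and 58.5 and 126 in Aldh1a2 cells. Apcdd1, a membrane antagonist, stood at 193 and 211 CPM against 33.0 and 38.04 in Tac1 cells and 56.6 and 45.4 in Aldh1a2 cells. Wif1, which binds Wnt ligands outside the cell, stood at 201 and 269 CPM against 20.2 and 64.3 in Tac1 cells. Nkd1, which acts inside the cell, was at 81.2 and 95.5 CPM in members and 89.8 and 69.6 in Aldh1a2 cells. Axin2, part of the complex that degrades beta-catenin, was at 65.4 and 62.0 CPM against 104 and 123, short of a log2 ratio of 1 in both libraries. Nkd2 was lower in members than in Aldh1a2 cells, at 53.7 and 65.6 CPM against 164 and 198, as was the target Sp5, at 40.4 and 15.7 against 121 and 45.1.

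**Figure D3:**
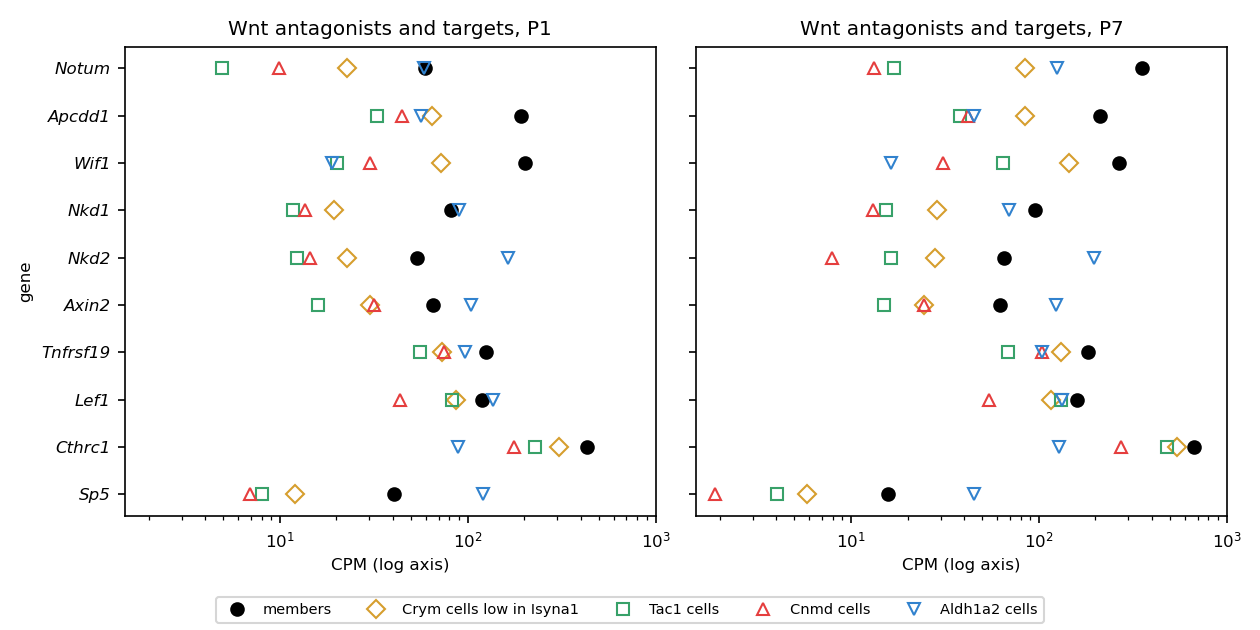
Level in CPM (x axis, logarithmic) of 10 Wnt antagonists and targets (y axis) in members (black) and 4 groups of compared cells (open symbols), P1 left and P7 right. Members lie to the right of Tac1, Cnmd and Crym cells low in Isyna1 for each gene shown, and to the left of Aldh1a2 cells for Nkd2, Axin2 and Sp5 at both stages and for Nkd1 and Lef1 at P1. Wnt5b, Sfrp1 and Sfrp4, each called lower in members in a contrast, are not shown.

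The stretches before the starts of Axin2, Nkd1, Sp5 and Tnfrsf19 are shown because these genes of the Wnt list hold, within 250 bases before their start, one of the words CTTTGAT or CTTTGTT, read on both strands, to which the TCF and LEF factors of the pathway are known to bind. Capitals mark the words, AACAAAG being CTTTGTT on the other strand. The sequences are from RefSeq on build GRCr8, at chr10:94398608-94398704 (plus strand), chr19:34722936-34723032 (minus), chr3:75682427-75682624 (plus) and chr15:39334645-39334741 (minus).
Axin2: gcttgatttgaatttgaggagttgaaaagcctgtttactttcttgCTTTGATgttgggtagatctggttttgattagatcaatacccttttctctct
Nkd1: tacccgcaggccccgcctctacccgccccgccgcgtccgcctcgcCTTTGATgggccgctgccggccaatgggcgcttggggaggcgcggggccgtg
Sp5: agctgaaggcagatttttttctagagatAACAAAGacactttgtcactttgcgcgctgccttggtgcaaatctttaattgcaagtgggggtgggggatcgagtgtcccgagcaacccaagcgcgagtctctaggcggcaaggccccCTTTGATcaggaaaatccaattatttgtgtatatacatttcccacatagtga
Tnfrsf19: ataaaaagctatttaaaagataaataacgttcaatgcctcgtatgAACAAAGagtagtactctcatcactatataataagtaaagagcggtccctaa
The word began 132 bases before the start of Axin2, 141 before that of Nkd1 and 130 before that of Tnfrsf19, and 222 and 104 bases before that of Sp5. Of the 22 genes of the Wnt list with a promoter sequence, 5 held a word (the other was Dkk1). Of all promoters read, 2716 of 33469, or 8.11%, held a word. The Wnt count is by gene and the other by promoter, so they are unlike measures, and no difference was tested. Apcdd1, Wif1, Lef1 and Nkd2 held none in this window. A match describes letters and shows no binding.

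Between the stages, 5806 genes were tested in members, of which 264 (4.55%) were higher and 123 (2.12%) lower at P7 by a log2 ratio of at least 1. The median log2 ratio of all genes tested was 0.10, and centred on it 198 were higher and 170 lower. Of the Wnt list, 3 of 16 tested genes were higher at P7 (Wnt5a, Sfrp2 and Notum) and none lower. Of the 264 higher genes, 181 (68.6%) were also called higher in Crym cells low in Isyna1. In all other kept cells 137 (51.9%) were. Of the 123 lower genes, 65 (52.8%) were also called lower in Crym cells low in Isyna1 and 59 (48.0%) in all other kept cells. Other cells of the same 2 libraries are given beside some of the genes described.

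Pmch, which encodes the precursor of melanin-concentrating hormone, had the highest ratio. It stood at 19.3 CPM at P1 (16.04 to 23.1, 122 UMIs) and 598 CPM at P7 (570 to 628, 1642 UMIs), a log2 ratio of 4.38. In Crym cells low in Isyna1 it was at 13.7 and 55.5 CPM and in all other kept cells at 4.30 and 68.3 CPM. After each cell was thinned to 2000 UMIs, 28.3% of P7 members held a Pmch UMI against 1.46% of endothelial and 1.72% of macrophage cells.

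Notum (356 CPM at P7 against 59.0 at P1) and Cldn5 were higher in members by more than in other cells. Cldn5, a tight junction claudin best known from endothelium, was at 71.6 CPM (65.1 to 78.5) at P1 and 362 CPM (339 to 385) at P7, against 43.0 and 74.2 in Crym cells low in Isyna1 and 71.4 and 77.1 in all other kept cells. The endothelial gene Cdh5 had 6 and 4 UMIs in all members. Of 134 P7 members with a Cldn5 UMI, 15 held a UMI of Cdh5, Kdr, Flt1, Tek, Esam or Egfl7 and 1 held 5 or more.

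Other genes among the 12 highest ratios also differed outside members. Car3 (carbonic anhydrase 3) stood at 11.7 and 225 CPM in members and at 31.1 and 229 in Crym cells low in Isyna1. Rarres1, a retinoid-responsive gene, stood at 8.23 and 126 CPM against 4.596 and 56.7, Ccn4 at 14.2 and 111 against 33.1 and 155, and the homeobox gene Msx3 at 2.85 and 56.1 against 3.06 and 39.997. Gcg, the proglucagon gene, at 7.44 and 195 CPM in members, was at 156 and 2657 CPM in the Cnmd cells without Epcam or Oc90. The myelin gene Mbp was found in 8.19% of thinned P7 members, 6.83% of endothelial cells and 16.7% of macrophages. Clec2g was found in 8.87% of members, below both endothelial cells (61.0%) and macrophages (28.2%). Whether Mbp and Clec2g in members came from background was not tested. Slco1c1 was found in 30.03% of members, 30.2% of endothelial cells, where it is known to be expressed, and 6.90% of macrophages.

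**Figure D4:**
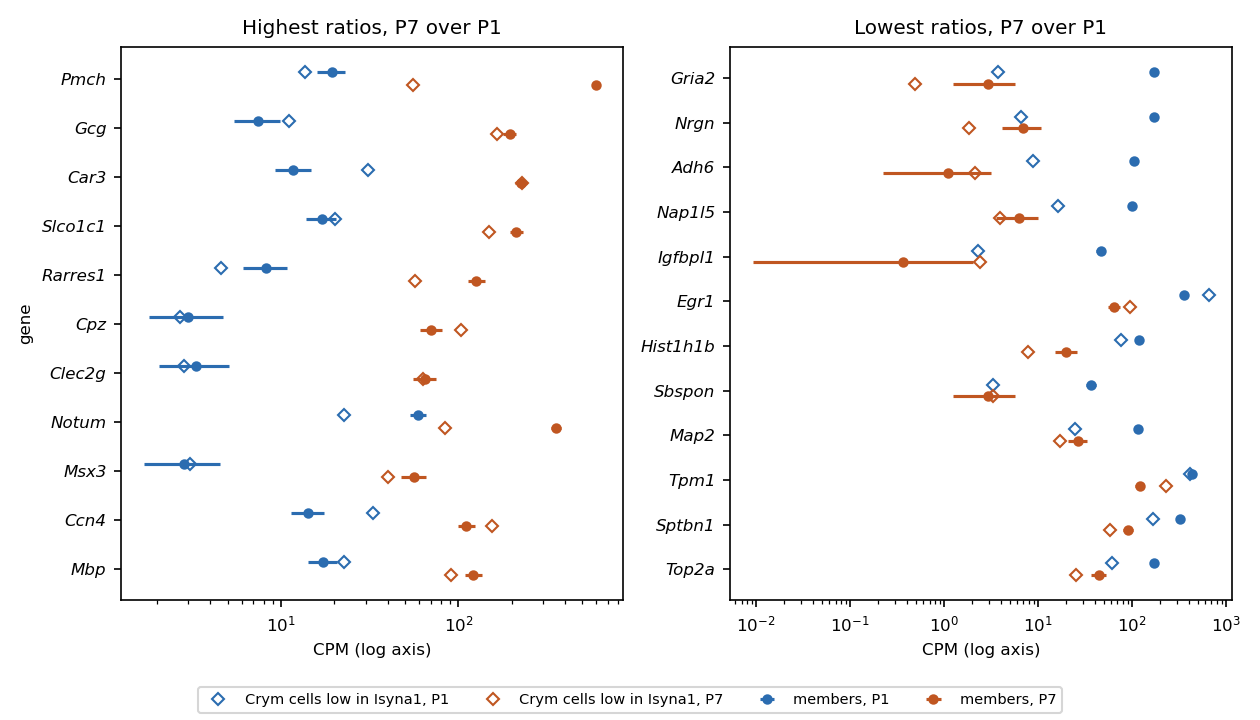
Levels in CPM (x axis, logarithmic) of genes among the 12 with the highest (left) and the 12 with the lowest (right) ratio of P7 to P1 in members, filled circles with exact Poisson 95% intervals, and in Crym cells low in Isyna1, open diamonds, at P1 (blue) and P7 (orange). Pmch and Notum at P7 and Gria2, Nrgn, Adh6 and Nap1l5 at P1 stand far from the diamonds of the same stage.

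The counts of the matrix and signalling lists stand beside shares over all genes of 4.55% higher and 2.12% lower. Values in this paragraph are those of members only. Col11a2 was higher at P7 (224 and 894 CPM) and the other 5 cartilage-type collagens tested were not called, Col11a1 being at 1108 and 609 CPM. Of 16 genes of the BMP and TGF-beta list 3 were higher, among them the decoy receptor Bambi at 38.9 and 195 CPM, and none was lower. Of 18 otic mesenchyme transcription factors Sox9 (96.4 and 257 CPM) and Dlx5 (0.95 and 29.9 CPM) were higher. Fibrocyte and ion transport genes gave 4 higher of 14, Car3, Atp1b1, Gjb6 and Aqp1, and 1 lower, Coch. The CCN list gave 2 of 4 higher, Ccn3 at 2258 and 4760 CPM and Ccn4.

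Gria2, which encodes an AMPA glutamate receptor subunit, had the lowest ratio. It stood at 173 CPM at P1 (163 to 183, 1092 UMIs) and 2.92 CPM at P7 (1.26 to 5.75, 8 UMIs), a log2 ratio of -3.82. Crym cells low in Isyna1 had 3.75 and 0.488 CPM, so the level at P1 was high in members and not in these neighbours. Nrgn (neurogranin) stood at 170 and 6.92 CPM against 6.59 and 1.85 in the neighbours. In thinned P1 cells a Gria2 UMI was found in 19.4% of members and 9.25% of endothelial cells, and a Nrgn UMI in 18.3% and 21.4%, while macrophages had 3.51 and 2.34% and Crym cells low in Isyna1 0.704 and 0.804%. Adh6, an alcohol dehydrogenase gene, stood at 104 CPM at P1 and at 3 UMIs at P7, a log2 ratio of -3.36 (-3.49 to -3.10), and Igfbpl1 at 46.5 CPM and 1 UMI, a ratio of -2.45 (-2.50 to -2.22). Nap1l5 was at 99.1 and 6.20 CPM and Map2, a microtubule protein, at 115 and 26.6 CPM.

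Of 8 division genes tested, 3 were lower at P7 in members (Mki67, Top2a and Cenpf) and none higher. The immediate-early gene Egr1 was at 358 and 64.5 CPM in members and 655 and 94.9 in Crym cells low in Isyna1. Top2a, a topoisomerase of dividing cells, was at 169.4 and 44.1 CPM against 60.7 and 25.4, and the linker histone gene Hist1h1b at 117 and 20.05 against 76.1 and 7.90. Of 15 dissociation and stress genes tested 2 were lower (Fos and Egr1) and Hspa1b was higher, and the part of tissue handling in them was not tested. Isyna1 itself, a gene of the rule, was at 1621 CPM at P1 and 383 CPM at P7.

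The P1 members were not uniform, and several of the genes low at P7 were concentrated in 1 part of them. The 267 P1 members with Isyna1 at 10 or more per 10000 had Gria2 at 453 CPM, and the 476 below it had 19.1 CPM. Nrgn was at 363 and 64.0 CPM in these parts, Adh6 at 262 and 17.4, Nap1l5 at 222 and 31.6, and Coch at 874 and 217. Serpinf1, an antiangiogenic serpin, was at 2398 and 628 CPM, the amino acid transporter subunit Slc3a2 at 2411 and 568, Col11a1 at 2183 and 519 and Mia, a secreted cartilage protein, at 330 and 60.04. Neuronal markers were low in both parts, Snap25 being at 1.79 and 0.98 CPM, Tubb3 at 10.7 and 8.09, and the whole neuronal list at 50.1 and 123 CPM. Crym was at 7439.9 CPM in the Isyna1-rich part and 9336 in the other.

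Genes lower in the Isyna1-rich part included those of division, whose list summed to 159 CPM there and 1077 in the rest, and the CCN list, at 1128 and 3229 CPM. Top2a was at 36.2 CPM there and 242 in the rest, Mki67 at 25.9 and 173, Postn (periostin) at 36.7 and 247 and Fn1 at 52.8 and 243. Across 739 P1 members thinned to 2000 UMIs, Isyna1 correlated with Serpinf1 (r = 0.57), Col11a1 (0.55), Apod (0.55) and Slc3a2 (0.53), a description over cells of 1 library. When only members with Isyna1 under 10 were kept (476 at P1 and 275 at P7, chosen after seeing the data), Gria2 had a log2 ratio of -1.34 between stages in place of -3.82, Map2 of -0.80 and Sbspon of -0.11, and 10 of the 12 lowest and all 12 highest genes remained past 1. That alternative gave 266 higher and 143 lower genes.

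**Figure D5:**
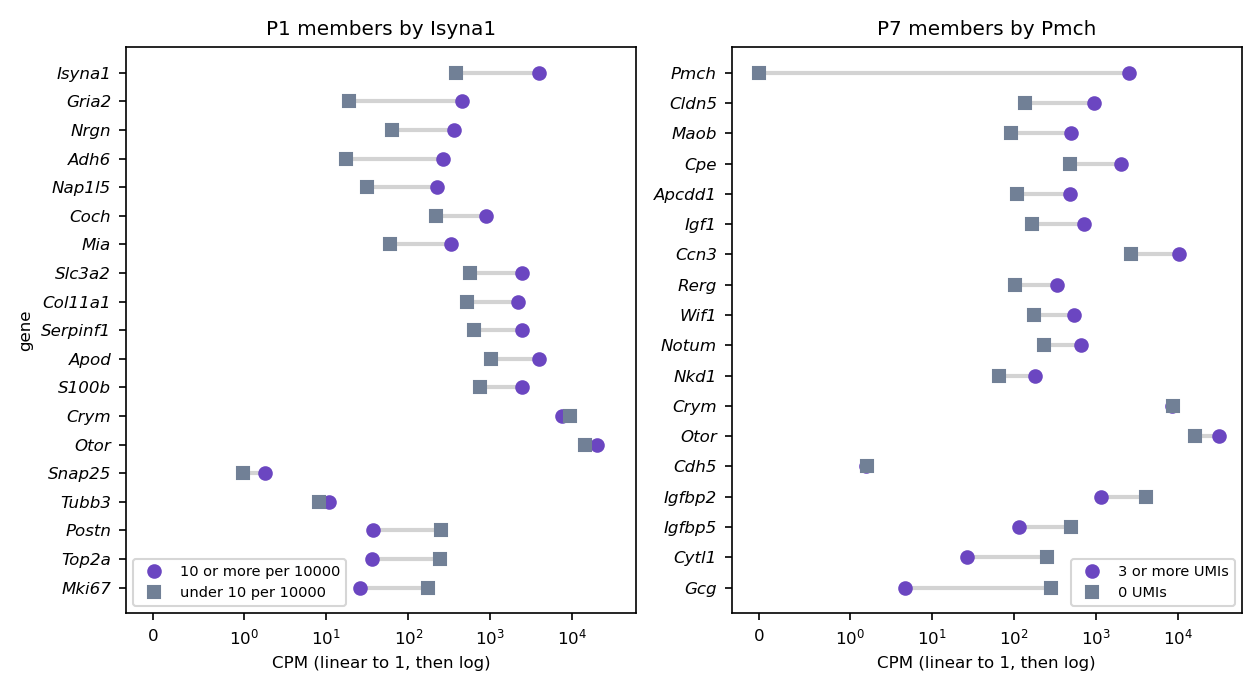
Levels in CPM (x axis, linear to 1 and logarithmic above) of selected genes in parts of the members: at P1 those with Isyna1 at 10 or more (267 cells) or under 10 per 10000 (476 cells), and at P7 those with 3 or more (76 cells) or no (190 cells) Pmch UMIs. Crym lies close in both parts of each panel, and Snap25 and Tubb3 at P1 and Cdh5 at P7 are near the bottom in both.

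At P7 the members divided along another line. Pmch reached 3 or more UMIs in 76 of 293 members (25.9%, 21.0 to 31.4%) and in 11 of 743 at P1 (1.48%, 0.741 to 2.63%). The 76 cells had Cldn5 at 953 CPM against 137 in the 190 members without Pmch, Ccn3 at 10102 against 2628, Cpe at 2016 against 473 and Maob at 490 against 92.8. The Wnt antagonists followed, with Apcdd1 at 482 and 108 CPM, Wif1 at 530 and 175 and Notum at 657 and 233, as did Igf1, at 712 and 165. In members without Pmch, Igfbp2 stood at 3998 CPM against 1152, Igfbp5 at 500.4 against 113, Cytl1 at 249 against 26.8 and Gcg at 281 against 4.73.

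Over 293 thinned P7 members, Pmch correlated with Cldn5 (r = 0.49), Cpe (0.49) and Ccn3 (0.47), and Ccn3 with Igfbp2 at r = -0.57. These are descriptions over cells that share a library. Of the 18 P7 members rich in Isyna1, 9 were among the 76 with Pmch. They held Nkd1 at 359 CPM, Axin2 at 162 and Sp5 at 81.2, against 80.5, 56.2 and 11.9 CPM in the other 275 members, from a total of 147826 UMIs. The 10 genes with the highest ratio of variance to mean were taken in thinned members of each stage. At P1 they included Otor, Ccn3, Igfbp5, Isyna1, Apoe, Ptn, Apod, Stmn1, Cenpf and Tmsb4x. At P7 they included Otor, Ccn2, Ccn3, Pmch, Otos, Hmgb2, Ptn, Igfbp2 and Igfbp5. Genes of division (Stmn1, Cenpf, Hmgb2) are among them, as are Apoe, Ptn, Tmsb4x and Ccn2.

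Members at P1 included dividing cells. At 2000 UMIs per cell, 80 of 739 members (10.8%, 8.68 to 13.3%) held 2 or more UMIs of 10 division genes at P1 and 19 of 293 (6.48%, 3.95 to 9.94%) at P7, and without thinning 15.9% and 14.3% did. Thinned shares were 5.28% (4.34 to 6.35%) and 2.69% (1.89 to 3.70%) in Crym cells low in Isyna1. They were 8.73 and 5.22% in Tac1 cells, 4.65 and 4.28% in Aldh1a2 cells, and 0.20% and 1.15% in Cnmd cells. In all other kept cells they were 7.99% (7.51 to 8.50%) at P1 and 8.37% (7.87 to 8.89%) at P7. Endothelial cells had 13.3 and 8.29% and macrophages 9.36 and 8.62%. The Isyna1 criterion counts UMIs before thinning, so cells with more UMIs pass it more easily. Median UMIs were 7402 and 8452 in members against 5876 and 6990 in Crym cells low in Isyna1. The part of this choice in the difference between their shares was not tested. Top2a and Mki67 correlated at r = 0.80 over P1 members.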

How the data were processed

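Single-cell libraries were made with the 10x Chromium 3' kit (V3), and the authors processed them with Cell Ranger (version 3.1.0 in the matrix headers) on rat build rn6, while the submitters' notes also name bcl2fastq and Seurat 3.1.1. The deposited matrices hold whole-number UMI counts that were not normalized. Barcodes with 501 to 4999 genes and under 25% of UMIs on mitochondrial genes were kept, and doublets were not called. Animals were pooled into 1 library per stage, so no test was made. Counts were summed over cells and scaled to CPM by all UMIs of the group, with exact Poisson intervals for levels and Clopper-Pearson intervals for shares, and a floor of 3 counts where a count was 0. Log2 ratios used 10 CPM added, at least 20 CPM in either group, and a size of 1 or more. Genes of the rule were left out of these counts. Endothelial and macrophage cells for background had 5 or more UMIs of a marker list. Thinning to 2000 UMIs used a fixed seed. Calculations used scipy 1.17.1, pandas 2.3.3 and numpy 2.4.6 in Python 3.11.15, and were tested on simulated data.

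The members, compared groups and gene lists were chosen with earlier results of these data known. Named genes are the rule genes and 4 markers, members of the 23 gene lists, the 12 highest and 12 lowest ratios between stages, the 8 largest and 8 smallest ratios against each compared group ranked by the weaker library, and the 10 most overdispersed genes per stage. The contrast with Crym cells low in Isyna1, the splits by Isyna1 or Pmch and the genes named from those splits were added after values were seen, as were Cldn5 between stages, Cdh5 and Tbx1. Ribosomal, mitochondrial and unnamed genes are counted but not named. Genes not matched by a single symbol are not analysed here, and some genes that met the rule are not reported here.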

Additional observations from a re-analysis of the deposited data

Results flagged for a closer look

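Between members and a compared group, 5 gene identifiers were past a log2 ratio of 1 in opposite directions in the 2 libraries. The difference between libraries was not tested. In 4 of them the compared cells were Aldh1a2 cells. LOC689064 had log2 ratios of 1.59 at P1 and -3.17 at P7, LOC103694857 of 1.40 and -3.37, and the 2 gene identifiers of Hba-a2, a hemoglobin gene, of 1.37 and -3.24 and of 1.54 and -3.93. In Aldh1a2 cells LOC103694857 stood at 95.1 CPM at P1 and 2716 CPM at P7, while members had 267 and 254 CPM. Near-identical globin copies can share reads, so the values of single copies are uncertain.

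The other is Col8a1, a short-chain collagen, compared with Cnmd cells, with log2 ratios of 1.48 at P1 and -1.09 at P7. It stood at 56.7 and 12.03 CPM in members and at 13.8 and 36.9 CPM in Cnmd cells.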

How the results depend on the processing

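No paired analysis was possible because each stage has 1 library. The share of members was higher at P1 than at P7 under each alternative run, but its size followed the rule: 7.57 and 2.90% with Crym at 20 per 10000, 2.75 and 1.16% at 80, 3.09 and 0.62% with 4 Isyna1 UMIs, 7.18 and 3.41% without the exclusions, 6.38 and 3.08% at a mitochondrial limit of 10%, and 2.86 and 0.522% after thinning to 2000 UMIs. With 1 CPM added, 547 genes were higher and 265 lower at P7, 159 were higher than in Aldh1a2 cells, 56 higher and 175 lower than in Tac1 cells, and 83 higher than in Cnmd cells. At 50 CPM or more these were 145 and 77 between stages and 30 higher and 66 lower than in Cnmd cells, since fewer genes were tested. Leaving ribosomal and mitochondrial genes out of the totals gave 198 lower genes at P7; the cause was not tested. Leaving out cells with 5 or more UMIs of another type's markers gave 39 genes lower than in Cnmd cells, and there Epcam, Cldn9 and Krt15 turned to log2 ratios of 0.24, 0.00862 and 0.00862 at P7. Leaving out Cnmd cells with Epcam or Oc90, an alternative chosen after seeing the data, gave 52 lower genes, Oc90 turned to 0.017 and Krt15 to 0.081 at P7, and Epcam to 0.43 and 0.76 at P1 and P7. Epcam and Oc90 defined the cells removed, and for Krt15 the cause was not tested. Leaving out barcodes found in both libraries, or members with 5 or more UMIs of division genes, also chosen after seeing the data, moved no count between stages past 1.5 times. At P14, 3 of 5281 kept cells reached the Crym level, which is scaled to the UMIs of the cell. The Isyna1 criterion, a count of UMIs, was met by 238. The lower depth of that library limits what a count of 0 members there can show, and its part was not tested. Pooled animals leave the spread between rats unknown.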
